A study of Homo sapiens with 74 samples.

Results

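Chromatin accessibility in HAP1 cells that lack PBRM1 was compared with that in wild-type (WT) HAP1 cells. The comparison rests on 4 of the 74 samples in the series, the 2 libraries of the PBRM1 knockout and WT libraries 1 and 2, which were chosen by their labels in the table of knockout lines. HAP1 is a near-haploid human cell line derived from a chronic myeloid leukaemia. The PBRM1 knockout is the single clone 10-1135, and the WT libraries are of the clone named C631. Because 1 clone stands for the knockout, an effect of the lost gene and a change that arose in that clone cannot be told apart. The edited exon was not analysed here. Both lines were grown in the same serum-supplemented medium, and open DNA was tagged with a transposase in 50000 permeabilised cells for 30 min at 37 °C (ATAC-seq). The series removes subunits of the BAF (SWI/SNF) chromatin remodelling complexes, and the comparison asks which regions change in accessibility without PBRM1.

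SWI/SNF complexes use the energy of ATP, through SMARCA4 or its paralogue SMARCA2, to slide and evict nucleosomes. PBRM1 (polybromo) is a subunit of the PBAF form of the complex, and its tandem bromodomains bind acetylated histones. PBAF also holds ARID2, which is needed for the assembly of that form, the bromodomain protein BRD7 and the PHD finger protein PHF10. PBRM1 is best known as a tumour suppressor of clear cell kidney cancer.

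The table of knockout lines holds 56 labelled libraries. PBRM1 belongs to 48 of them that share a form of title, here called set 1, together with WT replicates 1 and 2 and 22 other knockout clones with 2 libraries each. The PBRM1 libraries held 9679785 and 9980181 counts, the WT libraries 10286301 and 7933613, and all of set 1 between 7855389 and 12422345. A typical region had a median of 30 to 36 counts in the 4 libraries. Levels are given in CPM, the count of a region scaled to the total of its library. Pearson's r of log2 CPM across 145532 regions, which are not independent replicates, was 0.923 between the PBRM1 libraries, 0.921 between the WT libraries and 0.902 to 0.915 between a PBRM1 and a WT library. Within the other clones it was 0.915 to 0.940. The labels do not say whether the 2 libraries of a line are separate cultures. The p-values therefore rest on the spread among the libraries at hand, which may be technical.

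At an adjusted p of 0.05 (edgeR, quasi-likelihood test), 615 of 145532 regions tested were called, which is 0.423% of them. Of these, 353 regions (0.243%) were lower and 262 regions (0.18%) were higher in PBRM1 knockout cells than in WT cells, and 479 differed at least 2-fold. Lower regions made up 57.4% of these calls, but which direction held more calls depended on the fit. Their share was 46.5% of 942 calls when only the PBRM1 and WT libraries were fitted, 48.7% without PBRM1 replicate 1, 75.1% without WT replicate 2 and 41.1% of 2077 calls on the authors' normalized values. An unadjusted p below 0.05 was found at 13587 regions. The number called was 4174 against all 4 WT libraries and 11012 against WT replicates 5 and 6, so it depended on the WT libraries used. WT replicates 5 and 6 have another form of title and lower totals. A difference between the sets and an effect of PBRM1 cannot be told apart in those 2 counts. Nor need the 615 calls hold all regions that differ. A block of neighbouring regions on chromosome 17, described below, accounts for 15 of the lower calls. Outside it, the 338 lower regions had a median log2 fold change of -1.32, and 282 of them fell at least 2-fold. The 262 higher regions had a median of 1.16, and 182 of them rose at least 2-fold. The absolute log2 fold change of the calls ran from 0.68 to 3.16 among lower regions outside the block and from 0.67 to 3.05 among higher regions.

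Each of the 4 libraries was left out in turn. The calls were chosen on all 4, so a sign kept in such a fit is largely built in. The number of calls rested on each of the 4 libraries. It was 304 without PBRM1 replicate 1, 116 without PBRM1 replicate 2, 166 without WT replicate 1 and 209 without WT replicate 2. Each of the 600 calls outside the chromosome 17 block kept its sign in each of these fits, and 44 of them, 30 lower and 14 higher, were called in all 4.

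**Figure D1:**
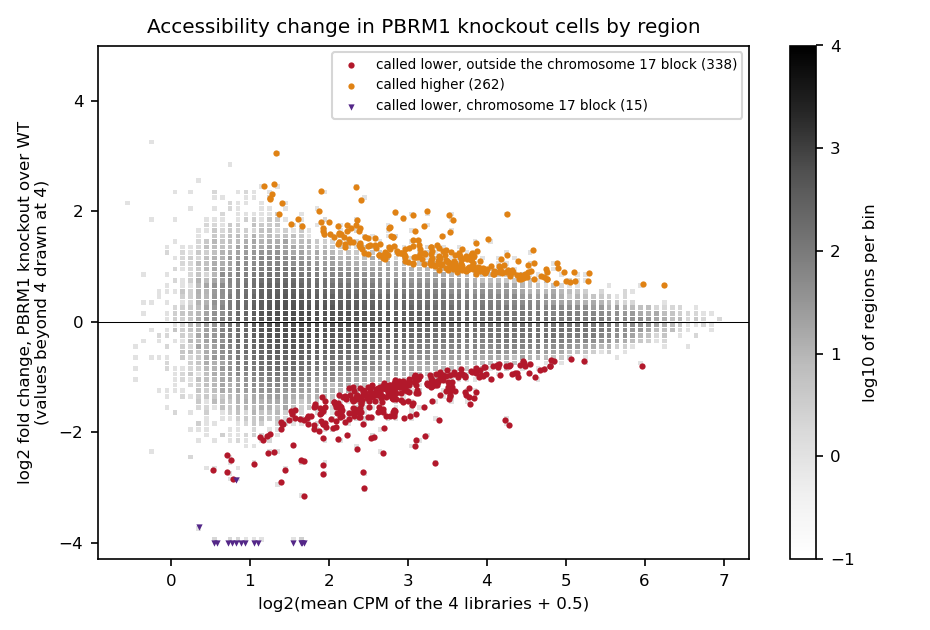
Each region by its mean accessibility in the 4 libraries (x axis, log2 of CPM with 0.5 added) and by its log2 fold change in PBRM1 knockout over WT (y axis), with grey shading for the number of regions per bin. Called regions are coloured, 338 lower outside the chromosome 17 block, 262 higher, and 15 lower within the block, whose fitted values lie far below the rest.

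Regions lower in PBRM1 knockout cells are called losses and regions higher gains. The 3 strongest of the named losses lay on chromosome 21. The region chr21:16288723-16289543 (hg19, coordinates throughout as the files give them) had 0.677 and 0.397 CPM in the PBRM1 libraries, against 4.95 and 4.90 CPM in the WT libraries. It fell by 3.16 on the log2 scale, with an SE of 0.45 (adjusted p = 3.41e-07). Both PBRM1 libraries lay far below both WT libraries there. The region chr21:16377574-16378233 had 0.774 and 1.39 CPM in PBRM1 knockout cells, against 8.35 and 9.32 CPM in WT cells (log2 fold change -3.02 ± 0.36 SE, adjusted p = 3.74e-10). At chr21:16400311-16401015, 0.581 and 0.397 CPM in PBRM1 knockout cells stood against 3.49 and 4.06 CPM in WT cells (log2 fold change -2.91 ± 0.50 SE, adjusted p = 7.43e-05). These 3 regions lie within one stretch of chromosome 21 that is taken up again below.

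Losses of similar size were found elsewhere. The region chr9:100807496-100808252 had 1.35 and 1.19 CPM in the PBRM1 libraries, against 7.86 and 9.08 CPM in the WT libraries (log2 fold change -2.72 ± 0.33 SE, adjusted p = 6.25e-10). More accessible in WT cells was chr4:111544093-111544677, with 3.29 and 2.28 CPM in PBRM1 knockout cells and 17.6 and 15.4 CPM in WT cells (log2 fold change -2.56 ± 0.26 SE, adjusted p = 1.36e-13). The groups did not overlap at either region, as the rule for naming regions requires. The next 7 regions in rank had log2 fold changes of -2.38 to -2.09 and adjusted p of 4.39e-10 to 3.67e-04. Their PBRM1 libraries ran from 0.993 to 4.07 CPM and their WT libraries from 5.14 to 16.7 CPM. They are chr2:125084796-125085531, chr10:10460110-10460830, chr3:181412672-181413622, chr2:80688766-80689472, chr21:16236430-16237455, chr13:67567919-67568824 and chr2:81093133-81093858.

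The named gains were smaller in fold than the strongest named losses. The region chr10:130963131-130963772 had 7.26 and 8.64 CPM in the PBRM1 libraries, against 2.04 and 1.31 CPM in the WT libraries (log2 fold change 2.21 ± 0.37 SE, adjusted p = 4.01e-05). The region chr21:17443302-17444544 had 12.7 and 16 CPM in PBRM1 knockout cells, against 3.69 and 3.47 CPM in WT cells (log2 fold change 2.00 ± 0.27 SE, adjusted p = 1.06e-07). Its neighbour chr21:17442457-17443156 is also among the 12 strongest gains, with 16.5 and 19.2 CPM in PBRM1 knockout cells and 6.11 and 3.71 CPM in WT cells. The 2 neighbours lie under 1 kb apart and need not be independent.

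At chr13:107222780-107223336 the PBRM1 libraries had 10.5 and 10.7 CPM, against 2.91 and 2.39 CPM in the WT libraries (log2 fold change 1.99 ± 0.33 SE, adjusted p = 2.54e-05). The most accessible of the named gains was chr2:17721436-17722201, with 25.4 and 33.9 CPM in PBRM1 knockout cells and 7.18 and 8.25 CPM in WT cells (log2 fold change 1.94 ± 0.24 SE, adjusted p = 1.36e-09). At chr5:170735779-170736459, 18.9 and 15.8 CPM in PBRM1 knockout cells stood against 3.98 and 5.14 CPM in WT cells (log2 fold change 1.93 ± 0.27 SE, adjusted p = 1.35e-07). Both PBRM1 libraries were above both WT libraries at each of these regions, as the rule for naming regions requires. The other 7 named gains had log2 fold changes of 1.72 to 1.93 and adjusted p of 6.31e-07 to 0.0102. Besides chr21:17442457-17443156 they are chrX:78002794-78004200, chr3:181469823-181470469, chr12:98268681-98269344, chr13:83033394-83034018, chr19:8590091-8590992 and chr3:4569781-4570597.

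Leaving out a library ended more calls among the named gains than among the named losses. Of the 12 losses, 11 were called in each of the 4 fits, and the exception, chr21:16236430-16237455, was called in 3 of them with a highest adjusted p of 0.101, without PBRM1 replicate 2. Of the 12 gains, 8 were called in each fit. The exceptions were chr3:181469823-181470469 (3 of 4 fits), chr12:98268681-98269344 (2 of 4), chr13:83033394-83034018 (1 of 4) and chr3:4569781-4570597 (1 of 4). WT replicates 5 and 6 have another form of title and lower totals of counts in regions (7331537 and 6860815). Against them, all 12 losses were called lower and 10 of the 12 gains higher. Over all regions that comparison called 7.57%, with 5.09% lower and 2.48% higher. Of the 338 losses it called 238 lower (70.4%) and none higher, and of the 262 gains 125 higher (47.7%) and 1 lower. The log2 fold change of the gain at chr12:98268681-98269344 was 1.04 in that comparison (adjusted p = 0.052), and at chr13:83033394-83034018 it was 0.78 (adjusted p = 0.23).

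**Figure D2:**
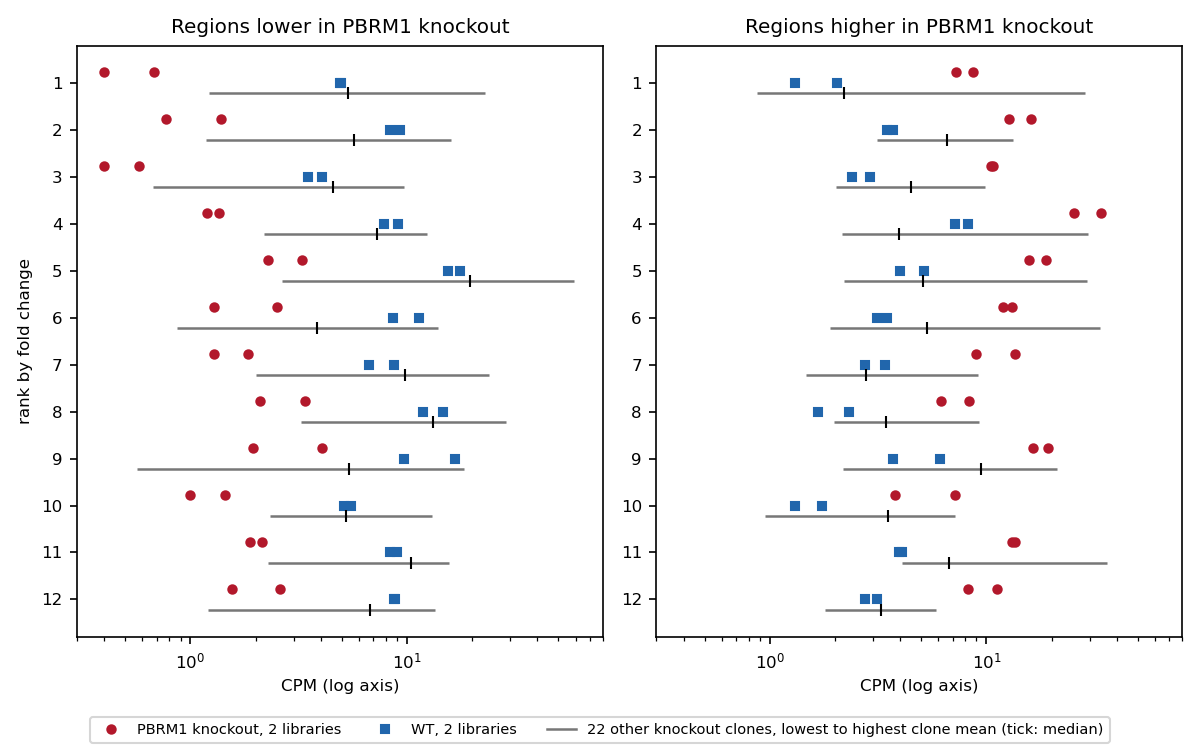
CPM on a log axis at the 12 named losses (left) and 12 named gains (right) in rank order, with PBRM1 libraries as circles, WT libraries as squares, and the range of the 22 other knockout clones as a line with a tick at its median. PBRM1 lies below every other clone at 8 of the losses and above every other clone at 5 of the gains.

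Set against the 22 other knockout clones of set 1, PBRM1 more often than WT lay beyond all of them at these regions. Among the 12 named losses, the PBRM1 mean was below every other clone at 8, and the WT mean was above every other clone at none. At chr9:100807496-100808252, where PBRM1 had 1.35 and 1.19 CPM, the other clones ran from 2.18 CPM in ARID2 knockout cells to 12.4 CPM in an ARID1B clone, with a median of 7.28 CPM. At chr4:111544093-111544677, 2 clones lay below PBRM1, and the range over the other clones was 2.65 to 59.1 CPM. At chr2:80688766-80689472 PBRM1 was not extreme, with 7 clones below it, the lowest being a SMARCA4 clone at 0.569 CPM. WT lay above 18 of the 22 clones there and above 19 at chr2:125084796-125085531, but above only 4 at chr13:67567919-67568824. Among the 12 named gains, the PBRM1 mean was above every other clone at 5, and the WT mean was below every other clone at 1. WT lay below 20 of the 22 clones at chr12:98268681-98269344 and chr13:83033394-83034018, but below only 8 at chr2:17721436-17722201. At chr3:4569781-4570597 the PBRM1 libraries had 8.23 and 11.2 CPM, while the highest of the other clones, PHF10, had 5.87 CPM. At chr19:8590091-8590992, by contrast, PBRM1 with 13.2 and 13.6 CPM was far below BRD7 with 36 CPM, and WT with 4.08 and 3.94 CPM was below all 22 other clones, whose median was 6.71 CPM.

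The same held for the whole lists, as a description, since PBRM1 and WT were both used to choose the regions. Such ranks were not counted over all regions tested, so neither the lists nor the named regions have a background here. PBRM1 was below all other clones at 119 of the 338 losses (35.2%), and WT was above all other clones at 20 (5.92%). The median of the other clones lay between PBRM1 and WT at 296 of them. Median CPM over the losses was 3.57 in PBRM1 knockout cells and 8.95 in WT cells, with 6.94 for the median of the other clones. PBRM1 was above all other clones at 88 of the 262 gains (33.6%), and WT was below all of them at 24 (9.16%). Median CPM over the gains was 14.5 in PBRM1 knockout cells and 6.41 in WT cells, with 7.95 for the median of the other clones.

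When PBRM1 was tested against the mean of the other 22 clones in place of WT, 4778 regions were called (3.28%), 1522 lower (1.05%) and 3256 higher (2.24%). The count was 1919 without PBRM1 replicate 1 and 479 without PBRM1 replicate 2. Averaging 44 libraries gives that mean a smaller error than a pair of WT libraries has. Of the losses against WT, 222 of 338 were also called lower against the other clones, and none was called higher. Of the gains, 211 of 262 were also called higher and none lower. The PBRM1 libraries enter both tests, so this overlap is partly built in. By the same naming rule, the largest losses against the other clones were chr9:100807496-100808252 and chr13:67567919-67568824, with log2 fold changes of -2.43 and -2.34. The largest gain was chr2:201023716-201024469, with 10.8 and 13.5 CPM in the PBRM1 libraries and 0.976 to 7.21 CPM in the 44 others. Its log2 fold change was 1.85 ± 0.19 SE (adjusted p = 6.22e-14), and WT had 4.85 and 2.87 CPM there.

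Runs of neighbouring regions that shift together were looked for, since a clone can carry structural changes of its own. On chromosome 17 the PBRM1 clone had almost no reads over 152 kb. From position 70587576 to 70739542, all 15 regions were called lower. Their summed counts were 13 and 8 in the PBRM1 libraries, against 476 and 401 in the WT libraries. In CPM the sums were 1.26 and 0.794 in PBRM1 knockout cells and 46.2 and 47.9 in WT cells, and the ratio of the WT mean to the PBRM1 mean was 45.9. In the other 22 clones the sum ran from 38.4 to 77.4 CPM with a median of 49.5, so no other clone came near the PBRM1 value. At 8 of the 15 regions neither PBRM1 library had a read, and with a floor of 3 counts over the group these regions were at least 13.2-fold to at least 35.9-fold lower. None of the 20 flanking regions was called, and their log2 fold changes were -0.67 to 0.93. Loss of the DNA and loss of accessibility cannot be told apart from these counts, so the block was left out of the lists of losses.

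A second stretch, on chromosome 2 from 32264476 to 32583574, was higher in PBRM1 knockout cells over 319 kb. It was singled out after its values were seen, as the one group of at least 4 called gains spaced by at most 250 kb. Of its 18 regions 5 were called higher, and all 18 had a log2 fold change above 0, from 0.41 to 1.15 with a median of 0.76. Summed CPM was 362 and 386 in the PBRM1 libraries, against 229 and 214 in the WT libraries, a ratio of 1.69. ARID2 knockout cells also stood apart, with 440 and 378 CPM, while the other 21 clones ran from 207 to 276 CPM. None of the 20 flanking regions was called. Their log2 fold changes ran from -0.71 to 1.97 with a median of -0.06, so the highest flanking value was above the highest within the stretch. Accessibility and DNA copy number cannot be told apart here either. The 5 calls were kept among the gains, of which 257 lie elsewhere.

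**Figure D3:**
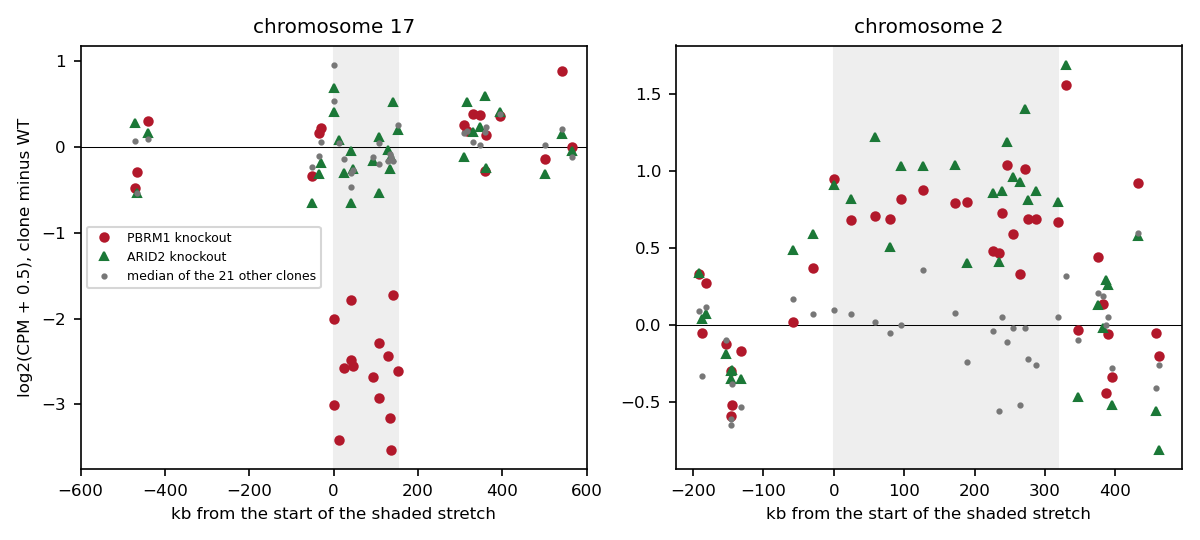
Difference in log2(CPM + 0.5) from the WT mean against distance in kb from the start of the shaded stretch, for PBRM1 knockout (circles), ARID2 knockout (triangles) and the median of the other 21 clones (dots), with up to 10 flanking regions on each side and the left panel limited to 600 kb. On chromosome 17 PBRM1 lies far below the other symbols within the stretch, and on chromosome 2 PBRM1 and ARID2 both lie above 0 at each of the 18 regions.

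Outside these stretches no broad shift was found. Medians of the log2 fold change over 592 windows of 5 Mb ran from -0.17 to 0.23. Called losses did lie close together in places, by the same spacing of 250 kb. On chromosome 21, 7 of 11 regions between 16229622 and 16615352 were called lower, with log2 fold changes of -3.16 to -1.86. The sum over the 11 regions was 21.4 and 17.9 CPM in the PBRM1 libraries, against 74.8 and 67.4 CPM in the WT libraries. Among the other clones, ARID2 was lowest with 25.1 CPM, BRD7 had 56.8 CPM, PHF10 had 91 CPM, and the median was 77.7 CPM. Of the 4 regions there that were not called, 3 were below 0, and they ran from -1.26 to 0.97, so the loss was not uniform along the stretch. On chromosome 2, 5 of 12 regions between 125051031 and 125291494 were called lower, with sums of 21.1 and 15.4 CPM in PBRM1 knockout cells and 53.4 and 58.2 CPM in WT cells. There the median of the other clones was 26.4 CPM, nearer to PBRM1 than to WT. On chromosome 10, 4 of 10 regions between 10336704 and 10533109 and 4 of 10 between 10834489 and 11060746 were called lower. Sums over the first were 14.6 and 13.1 CPM in PBRM1 knockout cells and 42.6 and 37.2 CPM in WT cells.

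The called regions were wide, accessible and variable across the other clones, whose libraries also entered the estimate of spread used in the test. Of the losses 57.1%, and of the gains 63%, lay among the 25% of all regions with the highest mean CPM in the other 22 clones. Median width was 832 base pairs for losses and 803 for gains, against 622 for all regions tested. Regions over 1000 base pairs made up 34.6% of the losses, 31.7% of the gains and 13% of all regions. The SD of log2 CPM over the means of the other clones had a median of 0.58 at losses and 0.56 at gains, against 0.31 at all regions. Of the losses 58.3%, and of the gains 56.9%, were among the tenth of regions that varied most over the other clones. A smaller fold suffices for a call where counts are higher, and how much of these shares that accounts for was not tested. By chromosome, called losses were most frequent on chromosome 21, with 10 of 1321 regions (0.757%), 7 of which belong to the group described above. They were next most frequent on chromosome 13, with 20 of 4547 (0.44%). On chromosome 17, outside the block, 4 of 4137 regions (0.0967%) were lower.

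PBRM1 was then compared with the knockouts of the other PBAF subunits directly. Each of these is also 1 clone, so an effect of a lost subunit and a change of its clone cannot be told apart. Between PBRM1 and ARID2 knockout cells 1687 regions were called (1.16%), 530 lower and 1157 higher in PBRM1 knockout cells. Against BRD7 knockout cells 959 were called (0.659%), 601 lower and 358 higher. Against PHF10 knockout cells 1107 were called (0.761%), 654 lower and 453 higher. Most of these counts also moved when 1 library was left out. Against ARID2 the count was 1014 without PBRM1 replicate 1, 541 without PBRM1 replicate 2, 1067 without ARID2 replicate 1 and 1003 without ARID2 replicate 2, and in the last of these 513 were lower and 490 higher. Against BRD7 it was 457 without PBRM1 replicate 1, 369 without PBRM1 replicate 2, 505 without BRD7 replicate 1 and 399 without BRD7 replicate 2. Against PHF10 it was 447 without PBRM1 replicate 1, where 202 were lower and 245 higher, 316 without PBRM1 replicate 2 and 307 without PHF10 replicate 2. Without PHF10 replicate 1 it was 924, with 683 lower and 241 higher.

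Fewer PBRM1 losses were called against ARID2 than against BRD7 or PHF10, a difference between counts that was not itself tested. Of the 338 losses, 34 were called lower in PBRM1 than in ARID2 knockout cells (10.1%) and 6 higher, with a median log2 fold change of -0.36. Against BRD7 knockout cells 93 were called lower (27.5%) and 2 higher, with a median of -0.72. Against PHF10 knockout cells 99 were called lower (29.3%) and none higher, with a median of -0.77. Over all regions, 0.364% were called lower against ARID2, 0.413% against BRD7 and 0.449% against PHF10. Of the 262 gains, 54 were called higher in PBRM1 than in ARID2 knockout cells (20.6%), 37 than in BRD7 (14.1%) and 51 than in PHF10 (19.5%), where 0.795%, 0.246% and 0.311% of all regions were called higher. The regions were chosen on the same PBRM1 libraries, which favours calls in the PBRM1 direction, so the counts are given as a description.

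At single regions the clones of the subunits differed. At chr21:16377574-16378233, PBRM1 had 0.774 and 1.39 CPM and ARID2 1.05 and 1.31 CPM, while BRD7 had 8.41 and 10.2 CPM and PHF10 had 9.44 and 11.3 CPM. PBRM1 differed there from BRD7 (log2 fold change -3.10, adjusted p = 1.98e-11) and PHF10 (-3.25, adjusted p = 4.44e-13). The difference from ARID2 was -0.13 (adjusted p = 0.966). At chr4:111544093-111544677, low values were found in PBRM1, ARID2 (4.43 and 4.45 CPM) and PHF10 knockout cells (3.08 and 2.77 CPM), but BRD7 had 23.7 and 25 CPM. The log2 fold change of PBRM1 over BRD7 was -3.12 there (adjusted p = 3.88e-20). At chr3:181412672-181413622 the pair was PBRM1 and PHF10. PBRM1 had 3.39 and 2.09 CPM and PHF10 3.47 and 3.95 CPM, while ARID2 had 13.8 and 12.9 CPM, BRD7 9.56 and 9.56 CPM, and WT 11.9 and 14.6 CPM. The difference of PBRM1 from ARID2 was -2.28 (adjusted p = 7.44e-11) and from BRD7 -1.80 (adjusted p = 1.36e-06).

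Over the 12 named losses, PBRM1 was called lower than BRD7 at 10, lower than PHF10 at 8 and lower than ARID2 at 1, which was chr3:181412672-181413622. A p above the threshold does not show that PBRM1 and ARID2 knockout cells were alike at the others. At chr21:16288723-16289543, for example, PBRM1 had 0.677 and 0.397 CPM and ARID2 2.21 and 1.62 CPM, a log2 fold change of -1.80 (adjusted p = 0.0524). Set against the same WT libraries, the log2 fold changes of ARID2 at the 12 losses had a median of -1.90, those of PHF10 a median of -0.36 and those of BRD7 a median of 0.04. All of these comparisons share the WT libraries that were used to choose the regions.

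The same direct comparisons were made at the gains. Over the 12 named gains, PBRM1 was called higher than ARID2 at 8, higher than BRD7 at 5 and higher than PHF10 at 6. At chr5:170735779-170736459 PBRM1 had 18.9 and 15.8 CPM, while ARID2 had 3.48 and 2.53 CPM (log2 fold change 2.53, adjusted p = 3.98e-12). PHF10 had 5.88 and 3.69 CPM and BRD7 8.41 and 10.3 CPM there. At chr2:17721436-17722201 PBRM1 had 25.4 and 33.9 CPM, BRD7 31.2 and 26.6 CPM and PHF10 30.3 and 23.8 CPM. ARID2 had less, with 20.8 and 12.9 CPM. All were above WT replicates 1 and 2 (7.18 and 8.25 CPM), and the median of the 22 other clones was 3.94 CPM. WT replicates 5 and 6 had 12.5 and 13.8 CPM, so ARID2 replicate 2 was not above both. In the separate experiment described below, the log2 fold change of ARID2 knockout cells over WT was 0.45 there (adjusted p = 0.633). At chrX:78002794-78004200 PBRM1 had 11.9 and 13.1 CPM and BRD7 25.8 and 24.6 CPM, so that PBRM1 was lower than BRD7 (log2 fold change -1.01, adjusted p = 0.00648) while above WT with 3.11 and 3.47 CPM. At chr21:17442457-17443156 PBRM1 had 16.5 and 19.2 CPM and ARID2 17.3 and 12.2 CPM, whereas BRD7 had 1.27 and 3.07 CPM.

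Some of the largest direct differences lay where PBRM1 was near WT. At chr21:22033472-22035322 PBRM1 had 23.3 and 26.1 CPM, ARID2 1.79 and 3.44 CPM and WT 26.8 and 22 CPM, and the log2 fold change of PBRM1 over ARID2 was 3.23 ± 0.27 SE (adjusted p = 3.52e-19). At chr13:91137516-91138409 PBRM1 had 2.42 and 4.87 CPM, ARID2 22.1 and 16 CPM and WT 4.37 and 4.42 CPM (log2 fold change of PBRM1 over ARID2 -2.38, SE 0.27, adjusted p = 1.06e-11). At chr8:58787836-58788675 ARID2 was likewise the group apart, with 2.71 and 1.59 CPM in PBRM1, 16.9 and 7.38 CPM in ARID2 and 3.11 and 2.27 CPM in WT. At chr2:205911874-205912636 PBRM1 had 7.35 and 8.84 CPM, ARID2 0 and 0.404 CPM and WT 7.86 and 6.22 CPM. Loss of the DNA and loss of accessibility in the ARID2 clone cannot be told apart there.

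Against BRD7, PBRM1 was not called against WT at chr18:41715535-41716222, where PBRM1 had 5.32 and 6.95 CPM, BRD7 0.576 and 0.631 CPM and WT 5.43 and 3.35 CPM. PBRM1 was higher than both at chr1:104733150-104734040, which is also one of the 262 gains over WT (log2 fold change 1.04). There PBRM1 had 14.8 and 12.9 CPM, BRD7 0.691 and 1.8 CPM and WT 8.54 and 4.78 CPM (log2 fold change of PBRM1 over BRD7 3.40, SE 0.33, adjusted p = 4.30e-15). At chr10:89577557-89578799 PBRM1 had 23.9 and 23.2 CPM, PHF10 had no read in either library, and WT had 26.4 and 21.3 CPM. At chr10:89610410-89611046 PBRM1 had 5.61 and 4.67 CPM, PHF10 again had no read, and WT had 3.88 and 4.78 CPM. Loss of the DNA and loss of accessibility in the PHF10 clone cannot be told apart at either region. Both were kept among the 453 regions called higher in PBRM1 than in PHF10 knockout cells.

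A separate experiment of the series, with 16 libraries of its own, gave a readout that shares no library with PBRM1 or its WT. In it ARID2 knockout, SMARCA4 knockout and WT cells received a control knockdown, and WT cells also received a knockdown of ARID2 or of SMARCA4. The labels name no clone for these knockout cells. Regions called in PBRM1 knockout cells were looked up there. In ARID2 knockout cells, 64 of the 338 PBRM1 losses were called lower (18.9%) and none higher. Of all 145617 regions tested, 0.418% were called in that comparison, 0.374% lower. The 338 losses had a median log2 fold change of -0.88, against 0.00 over all regions, and 311 of 338 were below 0. The 64 regions are 11.8% of the 544 losses of ARID2 knockout cells. The count of 64 was 19 without ARID2 knockout replicate 1, 24 without ARID2 knockout replicate 2, 34 without WT replicate 1 and 32 without WT replicate 2 of that experiment.

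Few of the PBRM1 gains were called in ARID2 knockout cells. Of the 262 gains, 7 were called higher (2.67%), where 0.0446% of all regions were, and 1 was called lower. Their median log2 fold change was 0.29, and 189 of 262 were above 0. The 7 regions are 10.8% of the 65 gains of ARID2 knockout cells. The count was 1 without ARID2 knockout replicate 1, 7 without ARID2 knockout replicate 2, 0 without WT replicate 1 and 2 without WT replicate 2 of that experiment. Without ARID2 knockout replicate 1 the median of the gains was -0.02.

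Of the 12 named losses, 7 were called lower in ARID2 knockout cells and 11 were below 0. At chr2:80688766-80689472, where PBRM1 had 1.94 and 4.07 CPM against 16.7 and 9.68 CPM in its WT, ARID2 knockout cells of that experiment had 1.92 and 2.19 CPM against 18.6 and 18.1 CPM in WT cells (log2 fold change -3.15, adjusted p = 1.68e-07). At chr4:111544093-111544677 they had 4.27 and 5.64 CPM against 22 and 25.6 CPM (log2 fold change -2.26, adjusted p = 2.69e-04). At chr10:10460110-10460830 they had 3.24 and 3.91 CPM against 17.5 and 18.8 CPM (-2.34, adjusted p = 8.54e-04). In each case both ARID2 knockout libraries were below both WT libraries. The exception was chr21:16236430-16237455, with 2.95 and 4.54 CPM in ARID2 knockout cells and 2.54 and 3.09 CPM in WT cells. Of the 12 named gains, 1 was called higher, chr21:17442457-17443156, with 25.5 and 10.5 CPM in ARID2 knockout cells and 5.27 and 4.37 CPM in WT cells (log2 fold change 1.89, adjusted p = 0.00282).

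Outside the named regions, the PBRM1 loss with the largest fall in ARID2 knockout cells, chosen after its values were seen, was chr7:146976625-146977607. It had 2.52 and 3.18 CPM in the PBRM1 libraries, against 10.1 and 8.49 CPM in their WT (log2 fold change -1.71, SE 0.30, adjusted p = 1.35e-04). ARID2 knockout cells had 1.77 and 1.88 CPM there, against 35.8 and 38.5 CPM in the WT of that experiment (log2 fold change -4.34, SE 0.47, adjusted p = 3.09e-09). The 2 count tables were normalized separately, so the levels are set side by side and not tested against each other.

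Knockdown of ARID2 in WT cells gave no called region among 145617 (edgeR; 6167 had an unadjusted p below 0.05). The median log2 fold change was -0.23 over the PBRM1 losses and 0.09 over the gains, against -0.02 over all regions. Of the losses 259 of 338 were below 0, and of the gains 157 of 262 were above 0.

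After knockdown or knockout of the ATPase SMARCA4, more regions of both PBRM1 lists were called lower than higher. Both lists are rich in accessible regions that vary across clones, unlike the background of all regions. How much of the shares here and in ARID2 knockout cells that accounts for was not tested. SMARCA4 knockdown gave calls at 5.73% of all regions tested and SMARCA4 knockout at 9.75%. After the knockdown 73 of the 338 PBRM1 losses were called lower (21.6%, against 4.96% of all regions) and none higher, with a median log2 fold change of -0.52 against 0.06 over all regions. Of the 262 PBRM1 gains, 46 were called lower (17.6%) and 4 higher (1.53%, against 0.773% of all regions), with a median of -0.30. In SMARCA4 knockout cells 123 of the losses were called lower (36.4%, against 8.26% of all regions) and 6 higher, with a median of -0.75 against 0.08 over all regions. Of the gains, 66 were called lower (25.2%) and 14 higher (5.34%, against 1.49%), with a median of -0.42. The ARID2 and SMARCA4 comparisons in WT and knockout cells share the 2 control libraries of that experiment, so their values are not independent of one another.

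**Figure D4:**
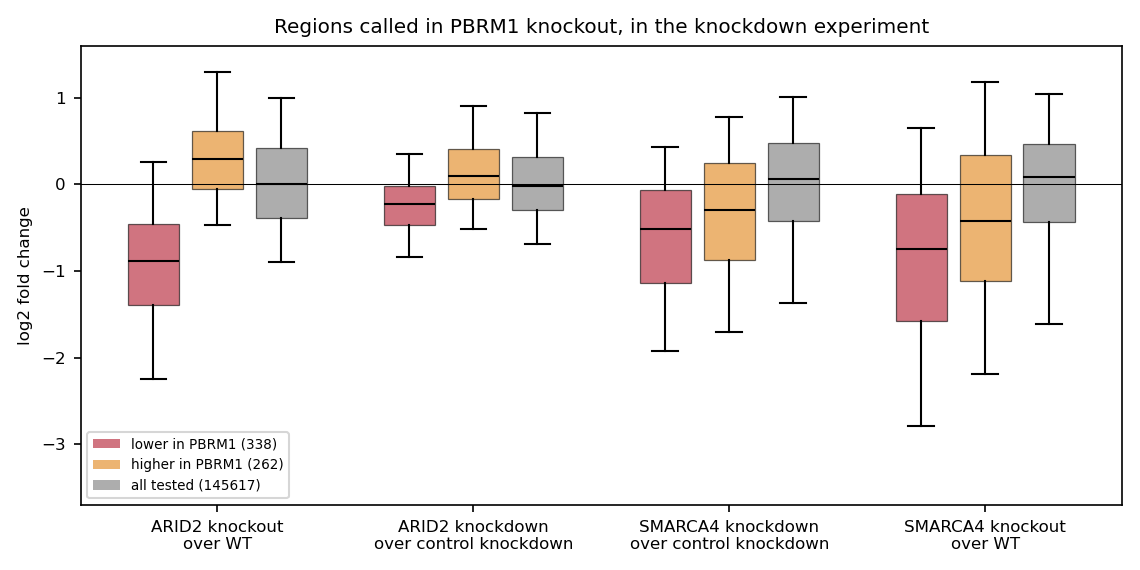
Log2 fold changes of the 338 PBRM1 losses, the 262 PBRM1 gains and all 145617 regions in 4 comparisons of the separate experiment (boxes from the 25th to the 75th percentile with the median, whiskers from the 5th to the 95th). The losses lie below all regions in each comparison, with a median of -0.88 in ARID2 knockout cells, whereas the gains have a median of 0.29 in ARID2 knockout and -0.42 in SMARCA4 knockout cells.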

How the data were processed

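The tables deposited by the authors hold unscaled counts of reads in each region for each library. A further deposited table holds the authors' normalized accessibility of set 1, whose values were treated as log2 and whose method is not given in the sources used here. Per the submitters' processing notes, Bowtie2 2.2.4, Picard 1.118, MACS2 2.1.1.20160309 and hg19 were used. How regions were merged and reads counted is not given in the sources used here. The count tables held 2 columns that match no labelled sample and were not used.

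Counts were tested in R 4.3.3 with edgeR 4.0.16 (quasi-likelihood test, TMM, default expression filter, Benjamini-Hochberg adjustment over all regions, 2-sided). The fit held all 56 labelled knockout-table libraries with 1 coefficient per clone and WT set, leaving 28 residual degrees of freedom. The knockdown-table fit held 16 libraries and left 8. Set 1 is defined by title form, as the labels give no batch. Named regions were called, above median mean CPM, outside the chromosome 17 block and without overlap between the groups, and the 12 with the largest fold change per direction are given (539 regions passed). The block was found as neighbouring regions with WT of at least 1 CPM and PBRM1 at most one part in 8 of it. The members and lists were chosen with earlier results of these data known. The test against WT was run on simulated counts drawn with the fitted spread, with 200 regions above the median level changed. It called 97% of the 4-fold and 52% of the 2-fold changes, and 4 unchanged regions. Changes at less accessible regions were not simulated. Alternatives included DESeq2 1.42.0 and limma 3.58.1. Reads carry no molecular identifiers, so floors of 3 counts cover counting error only. The files do not pair regions with genes, so no gene names are given.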

Additional observations from a re-analysis of the deposited data

How the results depend on the processing

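The count for PBRM1 against WT (615 called, 353 lower, 262 higher) depended on which libraries estimate the spread and on the group it was set against. With the PBRM1 and WT libraries alone it was 942, 504 of them higher. With WT replicates 5 and 6 it was 11012 (7401 lower, 3611 higher), with all 4 WT libraries 4174 (2474 lower, 1700 higher), and with the mean of the other set 1 clones 4778 (1522 lower, 3256 higher). On the authors' normalized values with limma it was 2077 (853 lower, 1224 higher), a test without a count model. With cyclic loess offsets 395 were higher, and at an adjusted p of 0.01 232 were called (148 lower, 84 higher). Leaving out 1 library gave 116 to 304 calls (85 to 157 lower, 31 to 156 higher). For the direct comparisons it gave 541 to 1067 calls against ARID2, 369 to 505 against BRD7, 307 to 924 against PHF10 and 479 to 1919 against the other clones. In ARID2 knockout cells it gave 19 to 34 of the losses and 0 to 7 of the gains. Fewer samples enter each of these fits; the cause was otherwise not tested. Leaving out the chromosome 17 block gave 597 calls and leaving out the chromosome 2 stretch 608, both chosen after seeing the data. DESeq2 called 706. Of 360 refits at the 24 named regions 345 stayed past the threshold in the same direction and 15 missed it, none with the opposite sign; all 108 at regions of the direct comparisons kept theirs.

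With the replicate number as a block the count was 720 (384 lower, 336 higher), and 2029 against ARID2, 1081 against BRD7, 1479 against PHF10 and 5773 against the other clones. Deviations of same-numbered PBRM1 and WT libraries had a correlation of -0.079, so the numbers were not taken to pair the libraries. The correlation of PBRM1 was 0.066 with BRD7, 0.129 with PHF10 and -0.133 with ARID2, where crossed numbers, chosen after seeing the data, gave 2035.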
